A study of Homo sapiens with 12 samples.

Results

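The effect of PF9363 on cells given oncostatin M was followed across all genes that could be measured. PF9363 is a compound that the labels call an inhibitor of KAT6A and KAT6B. Of 60623 genes in the deposited table, the 15580 with at least 1 TPM in at least 3 of the 6 PF9363 and OSM libraries were taken (TPM, the level of a transcript per length as a share of the whole library). Of these, 11917 are protein coding, 336 passed only through the PF9363 libraries and 561 only through the OSM libraries, and 45043 genes fell below the limit. By the library that decides the limit, the last genes to pass were NLRC3 (1.0018 TPM) and ZC3H12A-DT (1.0024 TPM). The first to fail were IRF5 (0.9992 TPM) and MAST1 (0.99895 TPM).

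All libraries came from HMEC-1, an immortalised line of human dermal microvascular endothelial cells, grown with epidermal growth factor and hydrocortisone. The PF9363 group received 30 µg/mL PF9363 together with oncostatin M, which signals through gp130 as interleukin-6 does. A second inhibitor group received 10 µg/mL CBP300, which the labels call an EP300 inhibitor, together with oncostatin M. The OSM group received oncostatin M alone and the CT group fresh medium, and RNA was taken after 48 h from 3 libraries per group. Oncostatin M is given as 10 ng/mL in the treatment protocol and as 10 µg/mL in the descriptions of the samples. Which of these was used is unsettled. No group received PF9363 without the cytokine and no vehicle is named, so what follows describes PF9363 only on top of oncostatin M. The labels do not say whether replicates were separate cultures, and the p-values then measure only the spread between these libraries.

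KAT6A (MOZ) and KAT6B (MORF) are histone acetyltransferases that work in a complex with a BRPF scaffold (BRPF1, BRD1 or BRPF3), the small subunit MEAF6 and a reader subunit, ING5, which binds methylated histone H3. The complex acetylates histone H3 near transcription start sites. In mouse embryos and in leukaemia cells it is best known for keeping HOX genes active.

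PF9363 libraries held 15744613 to 16521077 recovered reads and OSM libraries 15749899 to 20812680. PF9363 replicate 3 stood apart from replicates 1 and 2, with a mean absolute log2 difference per gene of 0.46 and 0.38 against 0.23 between those, and the OSM libraries differed from each other by 0.17 to 0.22. Mitochondrial ribosomal RNA took 3.72% to 4.07% of the TPM in PF9363 libraries and 1.77% to 1.80% in OSM libraries, and all mitochondrially encoded RNA took 15.59% to 18.12% in PF9363 libraries and 17.31% to 17.98% in OSM libraries. The labels name no batch, so anything technical that differs between whole groups cannot be told apart from the inhibitor. All 10 defining endothelial markers were at 1 TPM or more in every PF9363 and OSM library, with summed levels of 1139 to 1206 TPM in PF9363 and 1299 to 1358 TPM in OSM. In bulk RNA, fewer cells of a type and less RNA per cell cannot be told apart. Among these markers ESAM, a junctional adhesion molecule, rose (23.8 ± 0.851 TPM in PF9363 and 14.4 ± 0.953 TPM in OSM), CDH5 (VE-cadherin) fell (98.05 ± 21.2 TPM in PF9363 and 202 ± 3.97 TPM in OSM), and so did the guidance receptor ROBO4 (89.3 ± 5.43 TPM in PF9363 and 120.1 ± 6.03 TPM in OSM), the last not with median-of-ratios scaling (-0.07). Values written with ± are here and below means and SDs of 3 libraries.

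Promoters of 5 genes whose changes recur below are shown first, each from 250 bases before to 50 bases after the RefSeq start (GRCh38.p14, 5′ to 3′ on the gene's strand). Capitals mark the named motif on either strand. MX1 (chr21:41420308-41420607, plus strand) and IFIT3 (chr10:89327747-89328046, plus strand) encode antiviral proteins and are shown for the interferon-stimulated response element, ISRE (TTTC, any 2 bases, TTTC). H2BC12 (chr6:27146809-27147108, minus strand) encodes a histone H2B and is shown for its CCAAT and TATAAA boxes, and DHRS2 (chr14:23629865-23630164, plus strand), which encodes a short-chain dehydrogenase, for its TATAAA box. MORN2 (chr2:38875726-38876025, plus strand) was among the genes that fell furthest and is shown for a site of ETS factors (CCGGAAG). Of 5 genes that fell and were examined for that site, MORN2 and ING4 held 1 match each and SV2A, MORN4 and IFT172 held 0. Only 1 window per gene was searched. That of SV2A (chr1:149906942-149907241, minus strand) lies inside the span given for the gene below, away from its 5′ end, so its 0 does not describe the promoter there. A match is a description of the letters and not evidence that a factor binds there.
MX1: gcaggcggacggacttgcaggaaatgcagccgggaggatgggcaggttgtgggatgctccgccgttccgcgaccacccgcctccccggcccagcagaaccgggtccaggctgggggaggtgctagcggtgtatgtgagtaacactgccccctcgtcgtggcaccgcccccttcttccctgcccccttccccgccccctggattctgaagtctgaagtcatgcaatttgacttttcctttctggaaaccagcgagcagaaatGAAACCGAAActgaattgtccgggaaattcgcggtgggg
IFIT3: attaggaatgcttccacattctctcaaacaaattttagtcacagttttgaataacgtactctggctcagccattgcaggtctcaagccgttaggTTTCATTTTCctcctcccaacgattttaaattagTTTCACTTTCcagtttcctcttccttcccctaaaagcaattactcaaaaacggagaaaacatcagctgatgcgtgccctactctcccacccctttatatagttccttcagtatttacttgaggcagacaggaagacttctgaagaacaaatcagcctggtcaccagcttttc
H2BC12: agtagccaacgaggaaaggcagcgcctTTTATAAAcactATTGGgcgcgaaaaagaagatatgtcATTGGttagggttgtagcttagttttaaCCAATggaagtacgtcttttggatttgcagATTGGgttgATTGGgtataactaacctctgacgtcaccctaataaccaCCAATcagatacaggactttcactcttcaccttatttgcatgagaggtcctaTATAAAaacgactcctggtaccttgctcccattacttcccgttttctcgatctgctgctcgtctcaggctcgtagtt
DHRS2: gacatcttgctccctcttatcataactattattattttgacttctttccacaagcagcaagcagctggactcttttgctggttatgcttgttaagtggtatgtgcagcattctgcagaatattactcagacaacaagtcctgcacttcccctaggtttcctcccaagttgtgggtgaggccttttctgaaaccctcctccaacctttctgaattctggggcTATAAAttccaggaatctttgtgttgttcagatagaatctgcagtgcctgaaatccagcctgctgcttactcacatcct
MORN2: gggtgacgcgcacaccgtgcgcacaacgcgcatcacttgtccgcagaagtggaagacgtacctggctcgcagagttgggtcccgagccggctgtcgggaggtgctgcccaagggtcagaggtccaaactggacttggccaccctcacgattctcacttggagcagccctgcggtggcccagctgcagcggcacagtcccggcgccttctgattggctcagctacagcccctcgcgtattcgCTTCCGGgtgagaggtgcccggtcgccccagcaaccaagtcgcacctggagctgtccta

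With PF9363 many more genes were lower than higher. Of the 15580 genes, 1883 (12.1%) were called higher and 5822 (37.4%) lower than in OSM (limma, adjusted p under 0.05). Changes of at least 2-fold were made by 632 genes upward (4.06%) and 2168 downward (13.9%), and changes of at least 4-fold by 113 and 187 genes. The 3 PF9363 values lay wholly above the 3 OSM values for 15.2% of genes and wholly below for 47.2%. This balance depends on how libraries are set level with each other. The median tested gene was lower by 0.32 on the log2 scale, and when libraries were scaled by median-of-ratios size factors 3646 genes (23.4%) were higher and 3714 (23.8%) lower. When each library was corrected for a trend along GC content and length, 4570 of 15492 genes (29.5%) were higher and 4088 (26.4%) lower. The downward balance of the large changes was also lost: at least 2-fold higher and lower were 1101 and 1131 genes with median-of-ratios scaling, and 1111 and 987 with that correction. With median-of-ratios scaling all 632 genes called at least 2-fold higher by TPM were called higher at some size. Of the 2168 called at least 2-fold lower, 2081 were called lower. That scaling raises every PF9363 library relative to every OSM library, so the calls of the 632 had little room to be lost. With the GC and length correction 621 and 2109 kept their direction and call, and 6 genes called lower by TPM at any size were called higher. Log2 changes below are PF9363 minus OSM on the log2(TPM + 1) scale, which understates the change of low genes. Counts of list or family members called below are to be set beside the shares of all genes, 12.1% higher and 37.4% lower by TPM.

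**Figure D1:**
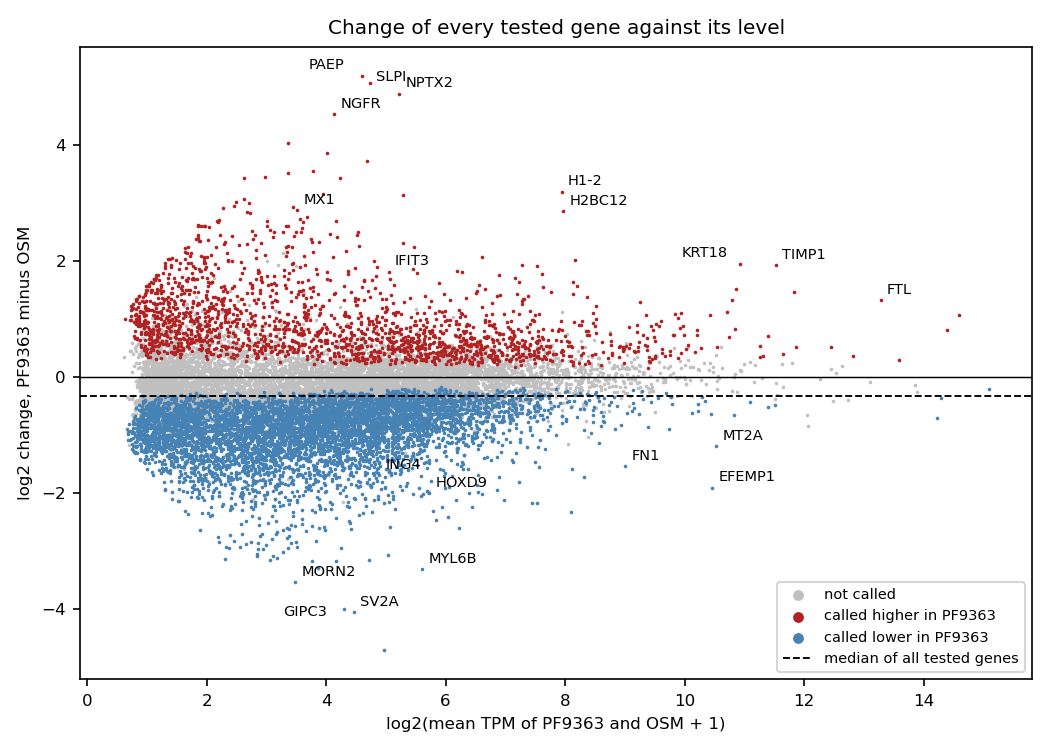
Log2 change, PF9363 minus OSM, of each of the 15580 tested genes (vertical axis) against the log2 of its mean TPM plus 1 over the 6 libraries (horizontal axis), with called genes in red (higher) and blue (lower) and the median change of -0.32 as a dashed line. Blue points outnumber red ones, and the labelled genes highest on the plot are PAEP at 5.20, SLPI at 5.08 and NPTX2 at 4.89 on the log2 scale.

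The genes that rose furthest were mostly low with oncostatin M alone. The largest rise was that of PAEP, a secreted lipocalin, at 5.20 on the log2 scale. SLPI, which encodes a secreted inhibitor of neutrophil elastase (chromosome 20, 45252239 to 45254564, GRCh38), had 44.4, 45.9 and 62.1 TPM in the PF9363 libraries, against 0, 1.03 and 0.725 TPM in the OSM libraries. SLPI rose by 5.08 on the log2 scale (SE 0.33, adjusted p = 9.14e-07). The genes of this paragraph were named among those whose 3 PF9363 and 3 OSM values did not overlap. NPTX2, a pentraxin secreted at synapses (chromosome 7, 98617297 to 98629868), had 72.4, 74.5 and 67.6 TPM in the PF9363 libraries, against 1.06, 1.82 and 1.5 TPM in the OSM libraries. NPTX2 rose by 4.89 on the log2 scale (SE 0.13, adjusted p = 1.08e-08), with little spread in either group. NPPB, which encodes the natriuretic peptide BNP, had 16.2, 19.9 and 19.04 TPM in the PF9363 libraries, against 0, 0 and 0.611 TPM in the OSM libraries. DHRS2, whose TATA promoter is shown above, had 27.5, 30.2 and 30.3 TPM in the PF9363 libraries, against 1.23, 1.21 and 0.801 TPM in the OSM libraries. DHRS2 rose by 3.87 on the log2 scale (SE 0.12, adjusted p = 2.98e-08). FOXD1, a forkhead transcription factor of developing kidney stroma, had 18.997, 18.8 and 16.1 TPM in the PF9363 libraries, against 0.65, 0.427 and 0.906 TPM in the OSM libraries. FOXD1 rose by 3.52 on the log2 scale (SE 0.17, adjusted p = 1.51e-07). BAIAP3, a regulator of vesicle exocytosis, averaged 33.4 ± 3.43 TPM in PF9363 and 2.18 ± 0.0997 TPM in OSM. ATCAY, which encodes the neuronal protein caytaxin, averaged 9.04 ± 0.419 TPM in PF9363 and 0.241 ± 0.112 TPM in OSM. NPPB, FOXD1 and ATCAY passed the limit only through the PF9363 libraries and so had to be higher there. TNFRSF21, the death receptor DR6, averaged 26.8 ± 6.42 TPM in PF9363 and 2.06 ± 0.36 TPM in OSM. VASN, which encodes a membrane protein that binds TGF-beta, averaged 69.4 ± 8.32 TPM in PF9363 and 6.91 ± 0.578 TPM in OSM. The same genes in cells given CBP300 were at 0.606 ± 0.709 TPM (SLPI), 4.51 ± 0.357 TPM (NPTX2), 0.156 ± 0.136 TPM (NPPB) and 0.677 ± 0.274 TPM (FOXD1). Each of the 4 was higher with PF9363 than with CBP300 (log2 differences 5.09, 3.72, 4.07 and 3.51, the largest adjusted p being 8.60e-07). The 4 were picked for high PF9363 values, which this comparison uses again, so it is not separate support.

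The genes that fell furthest were expressed with and without the cytokine. SV2A, a glycoprotein of synaptic vesicles (chromosome 1, 149903318 to 149917882), had 1.46, 1.92 and 1.19 TPM in the PF9363 libraries, against 40.3, 39.1 and 42.8 TPM in the OSM libraries. GIPC3, a PDZ-domain protein required for hearing (chromosome 19, 3585553 to 3593541), had 1.3, 1.15 and 1.46 TPM in the PF9363 libraries, against 36.9, 35.02 and 36.2 TPM in the OSM libraries. GIPC3 fell by 4.01 on the log2 scale (SE 0.10, adjusted p = 1.08e-08). MORN2, a protein of membrane occupation and recognition repeats (chromosome 2, 38875962 to 38929072), had 0.451, 1.05 and 0.835 TPM in the PF9363 libraries, against 19.2, 18.8 and 20.4 TPM in the OSM libraries. MORN2 fell by 3.54 on the log2 scale (SE 0.16, adjusted p = 1.04e-07), so that 2 of 3 PF9363 libraries were below 1 TPM. MYL6B, a myosin light chain, had 7.05, 6.88 and 10.1 TPM in the PF9363 libraries, against 82.1, 84.1 and 95.98 TPM in the OSM libraries. MYL6B fell by 3.31 on the log2 scale (SE 0.15, adjusted p = 1.04e-07). PLEKHA4, which binds phosphoinositides, averaged 1.69 ± 0.169 TPM in PF9363 and 25.5 ± 2.27 TPM in OSM. CLIP3, a microtubule-linking protein of the trans-Golgi network, averaged 2.55 ± 0.274 TPM in PF9363 and 31.1 ± 2.37 TPM in OSM. GGT7 (0.875 ± 0.314 TPM in PF9363 and 15.2 ± 0.251 TPM in OSM), SCRN3 (0.534 ± 0.267 TPM in PF9363 and 11.9 ± 1.59 TPM in OSM) and the short membrane protein SMIM30 (4.44 ± 1.44 TPM in PF9363 and 46.4 ± 1.43 TPM in OSM) also fell by more than 8-fold on this scale. Of these, SCRN3 passed the limit only through the OSM libraries and so had to be lower in PF9363. MORN4 averaged 0.82 ± 0.0796 TPM in PF9363 and 14.4 ± 1.37 TPM in OSM. All 4 tested genes named MORN were called lower, 3 of which passed the limit only through the OSM libraries, the remaining pair by less (MORN1, log2 change -0.66, adjusted p = 3.49e-04). In CBP300 cells MORN2 was at 18.3 ± 3.1 TPM, CLIP3 at 28.7 ± 0.487 TPM and PLEKHA4 at 19.3 ± 1.27 TPM. Each was lower with PF9363 than with CBP300 (log2 differences -3.44, -3.07 and -2.91, the largest adjusted p being 1.03e-07). Here too the genes were picked by the PF9363 values that the comparison uses again.

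**Figure D2:**
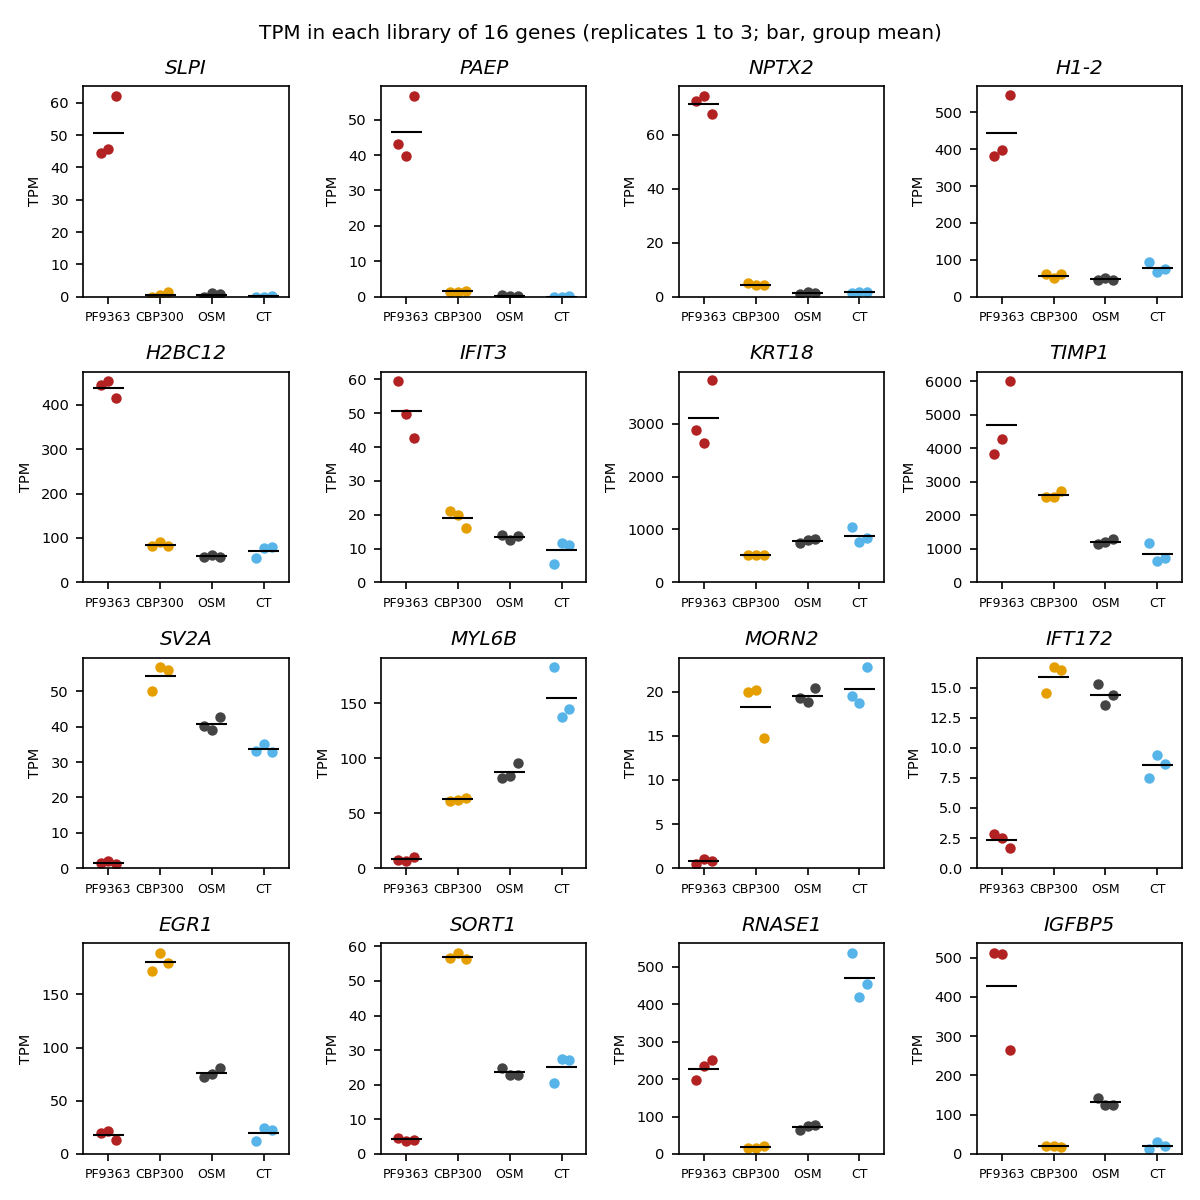
TPM of 16 genes in each of the 12 libraries (points, replicates 1 to 3 from left to right; bars, group means), with the groups PF9363, CBP300, OSM and CT from left to right and a separate linear axis from 0 for each gene. All 3 PF9363 libraries lie above the 9 others for SLPI, NPTX2, H1-2 and H2BC12 and below them for SV2A, MORN2, MYL6B and IFT172, and EGR1 and SORT1 are highest with CBP300.

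Some of the most abundant messages changed too. FTL, the ferritin light chain, had 12638, 13485 and 16767 TPM in the PF9363 libraries, against 5553, 5670.3 and 5643 TPM in the OSM libraries. FTL rose by 1.34 on the log2 scale (SE 0.11, adjusted p = 3.59e-06). TIMP1, a secreted inhibitor of matrix metalloproteinases and a classic target of oncostatin M, had 3825, 4276 and 6014 TPM in the PF9363 libraries, against 1131, 1215 and 1285 TPM in the OSM libraries. TIMP1 rose by 1.93 on the log2 scale (SE 0.21, adjusted p = 3.41e-05), beside 853 TPM in CT. KRT18, a keratin of simple epithelia and of some endothelial lines, had 2871, 2636 and 3813 TPM in the PF9363 libraries, against 744, 810.4 and 811 TPM in the OSM libraries. KRT18 rose by 1.96 on the log2 scale (SE 0.14, adjusted p = 1.94e-06). In each of the 3, replicate 3 was the highest PF9363 library. TMSB10, an actin-binding thymosin, rose as well (27778 ± 8670.1 TPM in PF9363 and 15249 ± 449 TPM in OSM). Its relative TMSB4X fell (2454 ± 349 TPM in PF9363 and 3381 ± 31.97 TPM in OSM), though not with median-of-ratios scaling (-0.11). MT2A, a metallothionein that binds zinc, fell to 693, 849.6 and 1203 TPM in PF9363 libraries, against 1796, 2156 and 2176 TPM in OSM libraries (log2 change -1.19, SE 0.25, adjusted p = 0.00262), and its call was lost with median-of-ratios scaling (-0.83, adjusted p = 0.0814). The tubulin TUBB (log2 change -0.51, adjusted p = 0.00115) and the matricellular growth factor CCN2 (log2 change -0.65, adjusted p = 0.0239) were lower by TPM, and neither passed with median-of-ratios scaling (-0.15 and -0.29).

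The targets of PF9363 and the genes listed with them changed little at the RNA level, apart from ING4 and, less so, KAT6B. Of 18 genes of the KAT6 complex and related acetyltransferases, 0 were called higher and 6 lower, with a median of -0.40 against -0.32 for all tested genes. With median-of-ratios scaling 3 were higher and 3 lower. ING4, a relative of the reader subunit ING5 (chromosome 12, 6650280 to 6663148), had 12.4, 12.7 and 13.9 TPM in the PF9363 libraries, against 41.8, 44.8 and 45.6 TPM in the OSM libraries. ING4 fell by 1.69 on the log2 scale (SE 0.08, adjusted p = 1.73e-07), with every PF9363 library at a similar low level. KAT6A itself had 13.7, 11.9 and 5.27 TPM in the PF9363 libraries, against 15.1, 12.7 and 11.1 TPM in the OSM libraries and was not called (log2 change -0.39, adjusted p = 0.27). Its lowest value was that of PF9363 replicate 3. KAT6B had 2.44, 2.22 and 1.03 TPM in the PF9363 libraries, against 4.62, 4.08 and 3.78 TPM in the OSM libraries. KAT6B fell by 0.87 on the log2 scale (SE 0.22, adjusted p = 0.0068). The scaffolds BRPF1 (log2 change -0.04, adjusted p = 0.867), BRD1 (log2 change -0.10, adjusted p = 0.813) and BRPF3 (log2 change -0.17, adjusted p = 0.677) and the subunit MEAF6 (log2 change -0.42, adjusted p = 0.233) were not called by TPM, and BRPF1 was called higher with median-of-ratios scaling (0.31). ING5, the reader subunit, was called slightly lower (log2 change -0.38, adjusted p = 0.00566). So were KAT8 (log2 change -0.41, adjusted p = 0.00305), KAT2A (log2 change -0.52, adjusted p = 2.72e-04) and JADE1 (log2 change -0.56, adjusted p = 0.00721). Of these 4, JADE1 alone was called lower with median-of-ratios scaling (-0.21). KAT7, an acetyltransferase that shares these partners, was not called by TPM (19.98 ± 3.49 TPM in PF9363 and 19.8 ± 1.17 TPM in OSM) but was called higher with median-of-ratios scaling (0.34). EP300 was not called (log2 change -0.61, adjusted p = 0.212).

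HOX genes, the best known dependents of KAT6A, were mostly lower. Of 29 tested, 1 was higher and 20 lower, with a median of -0.91, and 10 more were below the limit on low values. Of the 29, 4 passed only through the OSM libraries. With median-of-ratios scaling 3 were higher and 17 lower. HOXD9 fell to 17.9, 20.6 and 22.3 TPM in PF9363 libraries, against 81.3, 86.7 and 83.8 TPM in OSM libraries. Its neighbour HOXD10 had 0.534, 0.606 and 0.917 TPM in the PF9363 libraries, against 6.41, 7.12 and 7.07 TPM in the OSM libraries. HOXD10 fell by 2.23 on the log2 scale (SE 0.14, adjusted p = 7.17e-07). It passed the limit only through the OSM libraries and so had to be lower in PF9363. HOXA7 averaged 12.5 ± 1.06 TPM in PF9363 and 46.5 ± 1.1 TPM in OSM. HOXA6 averaged 2.9 ± 1.74 TPM in PF9363 and 11.8 ± 2.37 TPM in OSM, and HOXA6 was at its lowest in PF9363 replicate 3 (log2 change -1.82, and -1.36 without that library). HOXD13, the last gene of the same cluster, had 3.4, 2.7 and 2.59 TPM in the PF9363 libraries, against 0.14, 0 and 0 TPM in the OSM libraries. It was the HOX gene called higher, and since it passed the limit only through the PF9363 libraries it had to be higher there. By TPM HOXA9 was not called (log2 change 0.14, adjusted p = 0.622), nor were HOXB7 (log2 change -0.06, adjusted p = 0.603) and HOXC9 (log2 change 0.14, adjusted p = 0.459). With CBP300 against OSM 1 HOX gene was higher and 18 were lower, where 14% of all genes were higher and 14.5% lower, and between PF9363 and CBP300 8 were higher and 9 lower, where 15.6% and 46.2% of all genes were higher and lower.

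Transcription factors of development outside the HOX clusters moved both ways, with 12 of 43 tested higher and 18 lower (18 and 13 with median-of-ratios scaling) and 50 below the limit. Of the 43, 6 passed only through the PF9363 libraries, FOXF1 among them, and 3 only through the OSM libraries. MSX1, a homeobox factor of the neural crest, averaged 15.6 ± 2.27 TPM in PF9363 and 2.71 ± 0.733 TPM in OSM. FOXF1, a forkhead factor of lateral mesoderm, averaged 5.88 ± 2.01 TPM in PF9363 and 0.557 ± 0.211 TPM in OSM. TBX1, a T-box factor that acts with KAT6A in the mouse pharyngeal arches, fell (11.4 ± 2.45 TPM in PF9363 and 36.96 ± 3.18 TPM in OSM). So did PBX2, a HOX cofactor (28.1 ± 6.02 TPM in PF9363 and 76.1 ± 0.938 TPM in OSM). Also lower were SOX4 (12.8 ± 2.28 TPM in PF9363 and 26.4 ± 1.54 TPM in OSM) and NR2F2, a venous endothelial factor (63.1 ± 19.03 TPM in PF9363 and 119 ± 4.79 TPM in OSM). Of 8 cyclin-dependent kinase inhibitor genes, 3 were higher and 1 lower. CDKN2B (p15) averaged 22.7 ± 4.42 TPM in PF9363 and 8.32 ± 0.221 TPM in OSM. CDKN1C (p57) averaged 7.65 ± 0.927 TPM in PF9363 and 2.39 ± 0.257 TPM in OSM. CDKN2A, the locus of p16 and ARF that KAT6A restrains in mouse fibroblasts, was called lower by TPM (log2 change -0.67, SE 0.14, adjusted p = 0.0026) but not with median-of-ratios scaling (-0.31, adjusted p = 0.265).

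Histone genes had the highest median of the lists with at least 10 tested genes. Of 35 tested, 24 were called higher and 1 lower, with a median of 1.26, and 36 others were below the limit. Of the 35, 1 passed the limit only through the PF9363 libraries and so had to be higher there. The counts were 25 and 0 with median-of-ratios scaling and 24 and 1 without PF9363 replicate 3. H1-2, a linker histone (chromosome 6, 26055787 to 26056428), had 383, 399 and 547 TPM in the PF9363 libraries, against 45.6, 49.5 and 44.8 TPM in the OSM libraries. H1-2 rose by 3.20 on the log2 scale (SE 0.16, adjusted p = 1.91e-07). H2BC12, whose promoter is shown above (chromosome 6, 27146418 to 27146798), had 445, 454 and 416 TPM in the PF9363 libraries, against 57.8, 62.04 and 57.9 TPM in the OSM libraries. H2BC12 rose by 2.87 on the log2 scale (SE 0.13, adjusted p = 1.09e-07). H2BC5 averaged 37.6 ± 0.752 TPM in PF9363 and 6.01 ± 0.191 TPM in OSM. H2AC8 averaged 18.3 ± 5.88 TPM in PF9363 and 2.29 ± 0.275 TPM in OSM. H2BC21 averaged 11.7 ± 1.64 TPM in PF9363 and 3.14 ± 0.571 TPM in OSM. The linker histone H1-10, which lies outside the clusters and is expressed in all phases of the cell cycle, was the member called lower (552 ± 88.6 TPM in PF9363 and 707 ± 28.3 TPM in OSM), though not with median-of-ratios scaling (-0.01). Members are near-identical copies, so the authors' counting may have divided reads between them. Libraries were selected for poly(A) RNA, and most messages of clustered histone genes end without a poly(A) tail. Of other RNA that carries little or no poly(A), small nucleolar RNA summed to 1166 to 1385 TPM in PF9363 and 948 to 988 TPM in OSM, and mitochondrial ribosomal RNA was higher as given above. Spliceosomal RNA overlapped, with sums of 267 to 404 TPM in PF9363 and 244 to 307 TPM in OSM. In CBP300 cells small nucleolar RNA summed to 1226 to 1358 TPM and spliceosomal RNA to 387 to 463 TPM, while mitochondrial ribosomal RNA was lower, with 12529 to 13605 TPM in CBP300 and 17651 to 17993 TPM in OSM. Of the histone genes, 11 were higher and 0 lower with CBP300 than in OSM, where 14% and 14.5% of all genes were higher and lower. The part of these shifts in the histone values was not tested. Of 31 genes of S phase, 4 were higher and 10 lower, near the shares of all genes (12.1% and 37.4%). With median-of-ratios scaling 12 were higher and 3 lower, where 23.4% and 23.8% of all genes were higher and lower. SLBP, the protein that binds the stem-loop of histone messages, averaged 246 ± 19.3 TPM in PF9363 and 169 ± 5.98 TPM in OSM (log2 change 0.53, adjusted p = 0.0363). CCNE1 (cyclin E) averaged 22.7 ± 0.52 TPM in PF9363 and 16.1 ± 1.11 TPM in OSM. MCM2, a subunit of the replicative helicase, averaged 130.4 ± 13.5 TPM in PF9363 and 209 ± 4.83 TPM in OSM.

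Many genes that interferons induce were higher. Of 54 tested, 31 were higher and 4 lower, with a median of 0.57 (43 and 1 with median-of-ratios scaling), and 5 of the 54 passed the limit only through the PF9363 libraries. MX1, an antiviral GTPase, had 19.8, 18.1 and 19.5 TPM in the PF9363 libraries, against 2.1, 1.49 and 1.63 TPM in the OSM libraries. HERC6, a ubiquitin ligase of the same programme, had 14.3, 13.1 and 14.1 TPM in the PF9363 libraries, against 2.13, 1.76 and 1.04 TPM in the OSM libraries. HERC6 rose by 2.51 on the log2 scale (SE 0.15, adjusted p = 7.18e-07). IFI27 had 21.1, 20.8 and 29.3 TPM in the PF9363 libraries, against 4.00, 4.28 and 3.39 TPM in the OSM libraries. IFI27 rose by 2.33 on the log2 scale (SE 0.17, adjusted p = 2.11e-06). All 4 tested IFIT genes, which encode proteins that bind foreign RNA and lie side by side on chromosome 10 (89283694 to 89421001), were called higher. IFIT1 averaged 16.4 ± 3.03 TPM in PF9363 and 3.38 ± 0.103 TPM in OSM. IFIT2 averaged 16.7 ± 4.29 TPM in PF9363 and 6.4 ± 0.439 TPM in OSM. IFIT3 averaged 50.6 ± 8.48 TPM in PF9363 and 13.5 ± 0.837 TPM in OSM. IFIT5 averaged 26.5 ± 7.79 TPM in PF9363 and 11.2 ± 0.482 TPM in OSM. IFI6 (292 ± 83.7 TPM in PF9363 and 73.8 ± 5.08 TPM in OSM) and ISG15, a ubiquitin-like modifier (321 ± 111 TPM in PF9363 and 111 ± 2.38 TPM in OSM), rose as well, with their highest values in PF9363 replicate 3. Of the factors that carry the interferon signal, STAT2 was called slightly lower (log2 change -0.39, adjusted p = 0.04) though not with median-of-ratios scaling (-0.04). IRF9 was called only with that scaling (0.34 by TPM and 0.64 scaled). UBE2L6, the enzyme that conjugates ISG15, fell to 41.6, 38.9 and 46.4 TPM in PF9363 libraries, against 102, 100.4 and 104 TPM in OSM libraries (log2 change -1.26, SE 0.08, adjusted p = 9.03e-07). Of 22 interferon genes, receptors and nucleic acid sensors, 1 was higher and 6 lower (9 and 5 with median-of-ratios scaling). By TPM 12.1% and 37.4% of all genes were higher and lower. STING1, the adaptor of cytosolic DNA sensing, averaged 168 ± 6.49 TPM in PF9363 and 107 ± 1.45 TPM in OSM. TLR3, a sensor of double-stranded RNA, averaged 0.536 ± 0.073 TPM in PF9363 and 4.33 ± 0.824 TPM in OSM. As TLR3 passed the limit only through the OSM libraries, it had to be lower in PF9363. The kinase IKBKE averaged 4.22 ± 0.41 TPM in PF9363 and 12.03 ± 1.37 TPM in OSM. Between PF9363 and CBP300, 39 of the 54 interferon-induced genes were higher and 2 lower, where 15.6% and 46.2% of all genes were higher and lower. With CBP300 against OSM, 4 of the 54 were higher and 16 lower, where 14% and 14.5% of all genes were higher and lower.

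MHC class II genes, normally silent in such cells without interferon-gamma, were low throughout. HLA-DRA, the alpha chain of HLA-DR, had 10.6, 10.3 and 9.31 TPM in the PF9363 libraries, against 0.272, 0.491 and 0.174 TPM in the OSM libraries. HLA-DRA rose by 3.08 on the log2 scale (SE 0.24, adjusted p = 3.18e-06). CD74, its chaperone, averaged 3.67 ± 0.146 TPM in PF9363 and 0.641 ± 0.11 TPM in OSM. Among the 8 tested genes of this list 3 were higher and 4 lower. Of the 8, 3 passed the limit only through the PF9363 libraries, HLA-DRA and CD74 among them, and so had to be higher there. Another 1 of the 8 passed only through the OSM libraries and so had to be lower in PF9363. CTSS, the protease that trims CD74, fell to a mean under the limit of 1 TPM (0.749 ± 0.218 TPM in PF9363 and 4.95 ± 0.842 TPM in OSM). So did the promoter factors RFX5 (26.99 ± 6.31 TPM in PF9363 and 56.2 ± 5.04 TPM in OSM) and RFXANK (46.5 ± 11.2 TPM in PF9363 and 69.8 ± 3.5 TPM in OSM), RFXANK not with median-of-ratios scaling (-0.25). Markers of leukocytes gave these values. CD14, a co-receptor for lipopolysaccharide that some endothelial cells express, averaged 50.3 ± 8.22 TPM in PF9363 and 14.7 ± 1.67 TPM in OSM. CORO1A, an actin regulator, averaged 9.07 ± 1.58 TPM in PF9363 and 2.45 ± 0.241 TPM in OSM, and LAPTM5 fell (24.3 ± 0.469 TPM in PF9363 and 40.4 ± 0.507 TPM in OSM). PTPRC (CD45), which defines leukocytes, was at or below 0.0207 TPM in all 3 PF9363 libraries. The 8 leukocyte markers summed to 76 to 95.8 TPM in PF9363 and 55.5 to 59.7 TPM in OSM.

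Subunits of the proteasome, the protease complex of protein turnover, moved by small amounts. Of 37 tested, 18 were higher and 1 lower, with a median of 0.31 (26 and 0 with median-of-ratios scaling, and 15 and 2 without PF9363 replicate 3). The ATPase PSMC1 averaged 88.6 ± 8.82 TPM in PF9363 and 52.8 ± 1.83 TPM in OSM. PSMA7, of the core, averaged 421 ± 83.3 TPM in PF9363 and 251 ± 11.3 TPM in OSM. PSMB9, a subunit of the immunoproteasome, averaged 31.2 ± 6.15 TPM in PF9363 and 20.9 ± 1.72 TPM in OSM. PSMB8, its partner, was not called (log2 change 0.04, adjusted p = 0.76). Targets of the antioxidant factor NRF2 gave 8 higher and 2 lower of 16 (12 and 0 with median-of-ratios scaling). OSGIN1, an oxidative stress-induced growth inhibitor, had 17.7, 18.8 and 23.7 TPM in the PF9363 libraries, against 1.98, 2.35 and 2.45 TPM in the OSM libraries. OSGIN1 rose by 2.69 on the log2 scale (SE 0.13, adjusted p = 1.84e-07), and NQO1, a quinone reductase, averaged 170.1 ± 11.7 TPM in PF9363 and 78.8 ± 3.23 TPM in OSM. AKR1B1, an aldose reductase (34.8 ± 6.21 TPM in PF9363 and 62.8 ± 0.739 TPM in OSM), fell by TPM but not with median-of-ratios scaling (-0.49), and HMOX1, the haem oxygenase that answers the same factor, was not called by TPM (log2 change 0.15, adjusted p = 0.399).

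Keratins and S100 proteins, families of epithelial biology, stood out among genes seen to move together, and their choice followed inspection of the values, so that their counts carry no test. Of 10 tested keratin genes, 8 were called higher and 1 lower (8 and 0 with median-of-ratios scaling, and 7 and 1 without PF9363 replicate 3). Of the 10, 4 passed the limit only through the PF9363 libraries, KRT14 and KRT17 among them, and so had to be higher there. KRT8, the partner of KRT18, averaged 51.1 ± 5.45 TPM in PF9363 and 23.2 ± 0.413 TPM in OSM. KRT7 averaged 304 ± 54.1 TPM in PF9363 and 169 ± 18.3 TPM in OSM. KRT14, a keratin of basal epidermis, had 2.64, 2.8 and 3.96 TPM in PF9363 libraries and was listed at 0 in all 3 OSM libraries. KRT17 had 3.22, 2.93 and 2.92 TPM in the PF9363 libraries, against 0.226, 0.136 and 0.144 TPM in the OSM libraries. KRT19 fell (0.846 ± 0.267 TPM in PF9363 and 2.13 ± 0.682 TPM in OSM), though not with median-of-ratios scaling (-0.54). Defining epithelial genes stayed near 0: EPCAM was at 0.0754 to 0.405 TPM in PF9363 libraries and 0.403 to 0.687 TPM in OSM libraries, and CDH1 (E-cadherin) was at 0.0311 to 0.101 TPM in PF9363 libraries and listed at 0 in OSM libraries. Of 10 S100 genes, 6 were higher and 0 lower (5 and 1 without PF9363 replicate 3), and 1 passed only through the PF9363 libraries. S100A11 averaged 2541 ± 459 TPM in PF9363 and 1003 ± 68.8 TPM in OSM. S100A10 averaged 1269 ± 187 TPM in PF9363 and 762 ± 32.7 TPM in OSM. S100A9 averaged 7.62 ± 1.44 TPM in PF9363 and 1.17 ± 0.507 TPM in OSM, while S100A6 was not called (log2 change 0.21, adjusted p = 0.31). Of the secreted proteases and their inhibitors, a list and not a family chosen in this way, 14 of 30 were higher and 8 lower. ADAMTS1 and TIMP1 were among those higher, and MMP19, CTSZ, MMP2 and MMP14 among those lower. Of 18 genes of coagulation and fibrinolysis, another list, 6 were higher and 6 lower. Of these PLAUR, the urokinase receptor that focuses plasmin at the cell surface, averaged 182 ± 18.6 TPM in PF9363 and 52.5 ± 2.81 TPM in OSM. Of 17 tested serpin genes, 8 were higher and 5 lower. SERPING1, a serpin that inhibits complement C1, averaged 11.9 ± 1.02 TPM in PF9363 and 1.97 ± 0.169 TPM in OSM.

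Genes of the primary cilium, the sensory antenna of most resting cells, were lower as a group, and they too were picked out after the values had been seen. All 15 tested IFT genes, which encode the train proteins that carry cargo along the cilium, were called lower, with a median of -1.21 (10 of 15 with median-of-ratios scaling, and 15 without PF9363 replicate 3). IFT172, of the anterograde train (chromosome 2, 27444371 to 27489789), had 2.81, 2.5 and 1.67 TPM in the PF9363 libraries, against 15.3, 13.5 and 14.4 TPM in the OSM libraries. IFT172 fell by 2.22 on the log2 scale (SE 0.14, adjusted p = 9.03e-07). IFT140, of the retrograde train, averaged 3.25 ± 0.34 TPM in PF9363 and 8.79 ± 0.571 TPM in OSM. IFT88 averaged 2.62 ± 0.312 TPM in PF9363 and 4.14 ± 0.0628 TPM in OSM, and IFT88 was not called with median-of-ratios scaling (-0.23). Of 7 BBS genes, whose products form the coat that sorts ciliary membrane proteins, 6 were lower and 0 higher, and 1 passed only through the OSM libraries. BBS4 averaged 1.83 ± 0.213 TPM in PF9363 and 9.76 ± 0.962 TPM in OSM and BBS2 averaged 8.65 ± 1.32 TPM in PF9363 and 21.9 ± 0.295 TPM in OSM. BBS7 was not called (log2 change -0.38, adjusted p = 0.111). Of 17 genes of the transition zone, the gate at the ciliary base, 14 were lower and 0 higher (13 and 1 with median-of-ratios scaling), and 3 of the 17 passed the limit only through the OSM libraries. MKS1 had 2.06, 2.95 and 2.37 TPM in the PF9363 libraries, against 18.2, 16.8 and 16.6 TPM in the OSM libraries. MKS1 fell by 2.40 on the log2 scale (SE 0.11, adjusted p = 1.44e-07), and TCTN2 averaged 1.48 ± 0.28 TPM in PF9363 and 10.6 ± 0.335 TPM in OSM. AHI1, also of the gate, was the member called higher with median-of-ratios scaling (0.05 by TPM and 0.37 scaled). With CBP300 against OSM, 2 of the 15 IFT genes were higher and 1 lower, near the shares of all genes (14% and 14.5%). Between PF9363 and CBP300 all 15 were called lower, where 46.2% of all genes were lower.

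**Figure D3:**
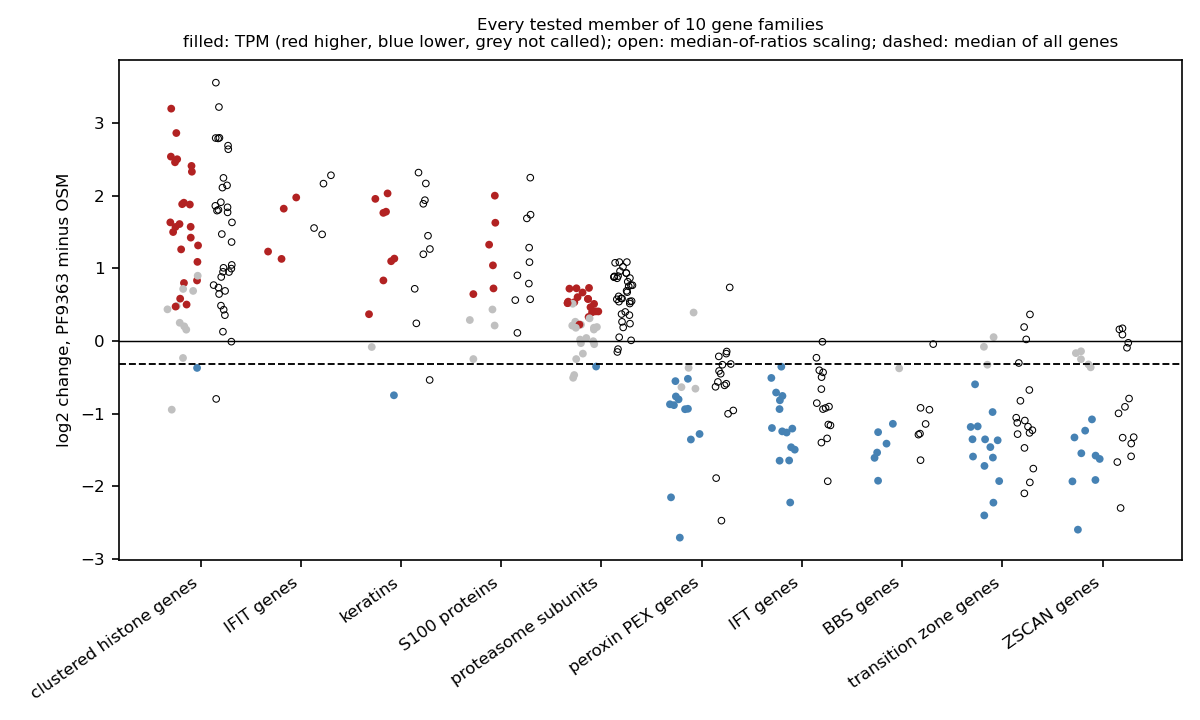
Log2 change, PF9363 minus OSM (vertical axis), of every tested member of 10 gene families, by TPM (filled; red called higher, blue called lower, grey not called) and with median-of-ratios scaling (open), with the median of all genes as a dashed line. Histone, IFIT, keratin, S100 and proteasome genes lie mostly above 0, and IFT, BBS, transition zone, PEX and ZSCAN genes mostly below it under both scalings.

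Zinc finger genes of the ZNF type, many of which encode repressors that recruit TRIM28 to DNA, made up the largest list. Of 434 tested, 18 were higher and 229 lower, with a median of -0.52 (57 and 172 with median-of-ratios scaling), and 31 passed the limit only through the OSM libraries. ZNF618 had 1.3, 0.923 and 0.878 TPM in the PF9363 libraries, against 13.8, 11.7 and 11.4 TPM in the OSM libraries. ZNF618 fell by 2.71 on the log2 scale (SE 0.14, adjusted p = 2.38e-07), and ZNF133 averaged 3.23 ± 0.514 TPM in PF9363 and 17.7 ± 0.703 TPM in OSM. ZNF274, a member that silences other ZNF genes, was among those higher (17.8 ± 3.52 TPM in PF9363 and 9.68 ± 0.54 TPM in OSM). TRIM28 itself rose to 723, 801 and 843 TPM in PF9363 libraries, against 452, 472 and 507 TPM in OSM libraries (log2 change 0.72, SE 0.09, adjusted p = 7.73e-05). Among 26 genes of heterochromatin and retroelement silencing, 2 were higher and 10 lower, near the shares of all genes (12.1% and 37.4%), or 8 and 8 with median-of-ratios scaling. Single members moved further. The DNA methyltransferase DNMT3A fell (2.57 ± 0.513 TPM in PF9363 and 11.2 ± 0.427 TPM in OSM). So did EHMT2 (G9a), which methylates histone H3 (15.3 ± 0.619 TPM in PF9363 and 49.1 ± 1.53 TPM in OSM), and MPHOSPH8, a subunit of the HUSH silencing complex (24.3 ± 3.66 TPM in PF9363 and 56.5 ± 5.91 TPM in OSM). ATRX, a chromatin remodeller of repeats, was called lower (log2 change -1.04, adjusted p = 0.0209), and most of its spread came from PF9363 replicate 3 (8.88, 7.15 and 3.32 TPM). Against CBP300, 12 ZNF genes were higher and 313 lower with PF9363, where 15.6% and 46.2% of all genes were higher and lower. CBP300 against OSM gave 100 higher and 25 lower, where the shares of all genes were 14% and 14.5%.

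Genes of neurons and excitable cells divided. Of 20 tested synaptic and neurosecretory genes, 8 were higher and 8 lower, 4 passed the limit only through the PF9363 libraries, and 24 were below it. SYN1, a vesicle phosphoprotein that the repressor REST keeps silent outside neurons, had 19.8, 18.9 and 19.1 TPM in the PF9363 libraries, against 2.45, 2.89 and 2.37 TPM in the OSM libraries. SYN1 rose by 2.51 on the log2 scale (SE 0.11, adjusted p = 8.96e-08), and SYP (synaptophysin) averaged 3.39 ± 0.252 TPM in PF9363 and 0.774 ± 0.176 TPM in OSM. In the other direction DLG4 (PSD-95), a scaffold of the postsynapse, averaged 2.67 ± 0.612 TPM in PF9363 and 17.3 ± 1.2 TPM in OSM. SYT11, a synaptotagmin, averaged 4.83 ± 1.11 TPM in PF9363 and 26.9 ± 3.71 TPM in OSM. Of 33 channel genes, 8 were higher and 17 lower (12 and 14 with median-of-ratios scaling), where 12.1% and 37.4% of all genes were higher and lower by TPM. Of the 33, 4 passed the limit only through the PF9363 libraries and 2 only through the OSM libraries. HCN2, a pacemaker channel, averaged 16.3 ± 2.42 TPM in PF9363 and 5.14 ± 0.62 TPM in OSM. TRPV2, a cation channel, was lower (6.59 ± 1.16 TPM in PF9363 and 20.05 ± 1.21 TPM in OSM). REST was at 26.2 ± 9.28 TPM in PF9363 and 27.2 ± 4.06 TPM in OSM (log2 change -0.10, adjusted p = 0.867).

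Genes of the cytokine's own pathway divided. Of 31 genes of gp130 signalling and STAT3 targets, 9 were higher and 9 lower (14 and 5 with median-of-ratios scaling). SOCS3, the main feedback inhibitor, had 370.3, 392 and 293 TPM in the PF9363 libraries, against 376, 379 and 391 TPM in the OSM libraries and was not called (log2 change -0.13, adjusted p = 0.622). Neither were the receptor chains OSMR (log2 change -0.25, adjusted p = 0.402) and IL6ST (log2 change -0.27, adjusted p = 0.71), whose lowest values were in PF9363 replicate 3, nor STAT3 (log2 change 0.15, adjusted p = 0.397), although STAT3 was called higher with median-of-ratios scaling (0.51). SOCS1, a related inhibitor that also restrains interferon signalling, averaged 13.96 ± 2.66 TPM in PF9363 and 3.94 ± 0.417 TPM in OSM. LRG1, a glycoprotein of the acute phase, averaged 149 ± 9.38 TPM in PF9363 and 69.1 ± 1.83 TPM in OSM. BCL6, a repressor that oncostatin M raised, fell to 21.96, 20.7 and 12.5 TPM in PF9363 libraries, against 60.03, 56.2 and 51.5 TPM in OSM libraries (log2 change -1.59, SE 0.24, adjusted p = 2.88e-04), and CEBPD, a factor of the acute phase, averaged 221 ± 28.2 TPM in PF9363 and 416 ± 10.01 TPM in OSM. Among vascular genes, thrombomodulin, which turns thrombin from clotting to its anticoagulant task (THBD), averaged 141 ± 31.2 TPM in PF9363 and 45.4 ± 0.576 TPM in OSM. PROS1, protein S of the same pathway, averaged 15.004 ± 3.06 TPM in PF9363 and 40.9 ± 2.68 TPM in OSM. FLT1, a receptor of vascular endothelial growth factor, averaged 31.4 ± 8.92 TPM in PF9363 and 11.3 ± 1.03 TPM in OSM. EDN1, the vasoconstrictor endothelin, averaged 38.3 ± 7.93 TPM in PF9363 and 155 ± 9.1 TPM in OSM.

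**Figure D4:**
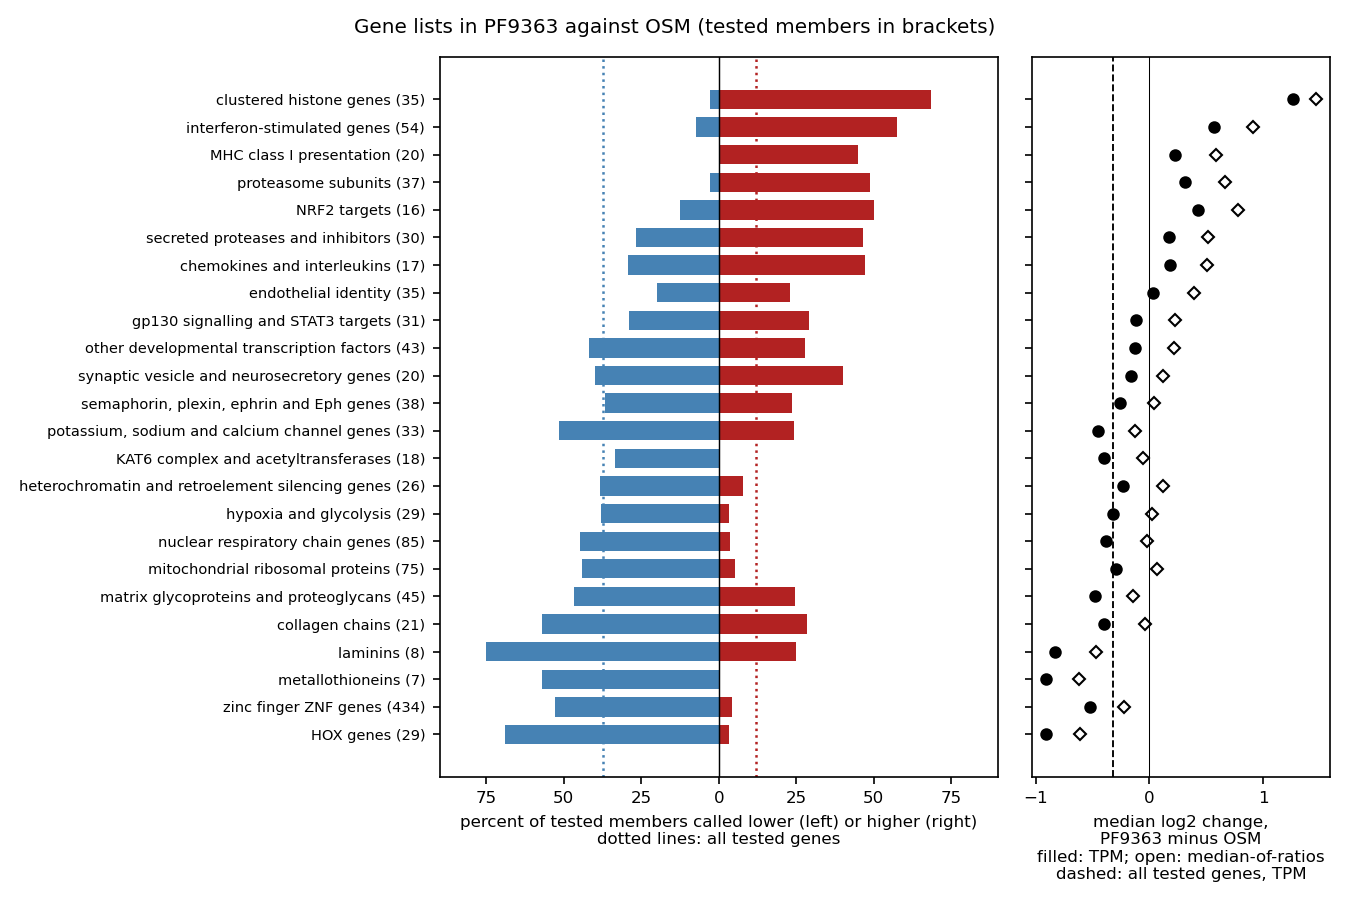
Share of tested members called lower (left, blue) or higher (right, red) in PF9363 against OSM for 24 gene lists, with the shares of all genes, 37.4% and 12.1%, as dotted lines, and the median log2 change of each list by TPM (filled) and with median-of-ratios scaling (open). Histone and interferon-stimulated genes are at the top with medians of 1.26 and 0.57, and HOX genes at the foot with -0.91.

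PF9363 was also set against the other acetyltransferase inhibitor, at doses that differed (30 µg/mL PF9363 and 10 µg/mL CBP300). PF9363 cells had 2428 genes higher (15.6%) and 7204 lower (46.2%) than CBP300 cells, with a median difference of -0.41. Both inhibitor groups are set against the same OSM libraries, so their values are given side by side. The single genes named next were picked for the largest differences between the inhibitors, among genes called in opposite directions against OSM. Their differences and p-values follow from that choice and carry no further support. EGR1, an immediate early factor, averaged 17.97 ± 4.49 TPM in PF9363, 180.2 ± 8.64 TPM in CBP300, 75.9 ± 4.31 TPM in OSM and 19.6 ± 6.85 TPM in CT. It was lower with PF9363 than with CBP300 (log2 difference -3.28, SE 0.24, adjusted p = 2.13e-06). SORT1, a sorting receptor for neurotrophins, averaged 4.18 ± 0.471 TPM in PF9363, 56.999 ± 1.04 TPM in CBP300 and 23.5 ± 1.24 TPM in OSM (log2 difference -3.49, SE 0.12, adjusted p = 3.32e-08). The metallothionein MT1E averaged 62.998 ± 13.96 TPM in PF9363, 651 ± 96.2 TPM in CBP300 and 285 ± 30.5 TPM in OSM (log2 difference -3.36, SE 0.22, adjusted p = 8.85e-07), and reads of this family can be shared between near-identical genes. In the other direction RNASE1, an extracellular ribonuclease of endothelium, averaged 228 ± 27.9 TPM in PF9363, 17.4 ± 2.75 TPM in CBP300, 71.9 ± 6.16 TPM in OSM and 469.6 ± 61.01 TPM in CT (log2 difference 3.64, SE 0.14, adjusted p = 4.99e-08). IGFBP5, which binds insulin-like growth factors, averaged 428 ± 142 TPM in PF9363, 18.9 ± 2.1 TPM in CBP300 and 131 ± 9.32 TPM in OSM (log2 difference 4.37, SE 0.32, adjusted p = 1.97e-06), with PF9363 replicate 3 lowest in its group (512, 509 and 265 TPM). GGT5, which converts leukotriene C4, averaged 88.98 ± 9.54 TPM in PF9363, 3.66 ± 0.196 TPM in CBP300 and 28.03 ± 1.29 TPM in OSM (log2 difference 4.26, SE 0.12, adjusted p = 1.27e-08). DNASE1L3, a secreted nuclease of chromatin, averaged 15.6 ± 1.61 TPM in PF9363, 0.179 ± 0.0765 TPM in CBP300 and 1.92 ± 0.296 TPM in OSM (log2 difference 3.81, SE 0.16, adjusted p = 6.52e-08). Of 35 genes of endothelial identity, 22 were higher and 2 lower with PF9363 than with CBP300, and of 17 chemokine and interleukin genes, 14 were higher and 1 lower. CBP300 against OSM gave 1 higher and 24 lower of the 35 and 0 higher and 13 lower of the 17, and PF9363 against OSM gave 8 higher and 7 lower, and 8 higher and 5 lower. Of all genes, 14% were higher and 14.5% lower with CBP300 against OSM, and 12.1% and 37.4% with PF9363 against OSM.

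The promoters of the genes that rose differed in their letters from those of all genes. RefSeq windows of 300 bases were matched to 10378 of the 15580 genes, 357 of them at least 2-fold higher and 1481 at least 2-fold lower, and both strands were searched. A TATAAA box stood in 18.2% of windows of genes at least 2-fold higher, 3.85% of those at least 2-fold lower and 5.50% of all. In the same order the ISRE was found in 7.28%, 2.16% and 2.79%, and a site of AP-1 (TGANTCA) in 11.5%, 4.12% and 4.29%. Sites typical of CpG-rich promoters ran the other way: CCGGAAG stood in 6.16%, 20.0% and 19.7%, a site of the factor NRF1 (GCGC, any 1 base, TGCGC) in 2.24%, 9.32% and 12.2%, and the E-box CACGTG in 5.04%, 9.99% and 10.1%. CCAAT differed little (37.0%, 35.2% and 36.8%). No motif searched contains another. Without the listed interferon-stimulated and histone genes, 324 genes at least 2-fold higher remained, and the TATAAA box stood in 14.8%, the ISRE in 4.32% and TGANTCA in 12%. With median-of-ratios scaling the shares were 13.6% and 3.84% for TATAAA and 9.55% and 16.7% for CCGGAAG, in genes at least 2-fold higher and lower. Of the 44 interferon-stimulated genes with a window 29 held the ISRE, as MX1 and IFIT3 do above, and of the 32 histone genes 22 held TATAAA and 27 CCAAT, as H2BC12 does. These shares are descriptions, since genes that differ in level and GC content also differ in promoter letters. Protein-coding genes at least 2-fold higher had a median level of 2.06 TPM with oncostatin M alone and a median GC content of 55.8%, those at least 2-fold lower 14.8 TPM and 48.8%, and all tested 22.9 TPM and 48.7%. Their median gene span was 13133, 33024 and 30786 bases.

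**Figure D5:**
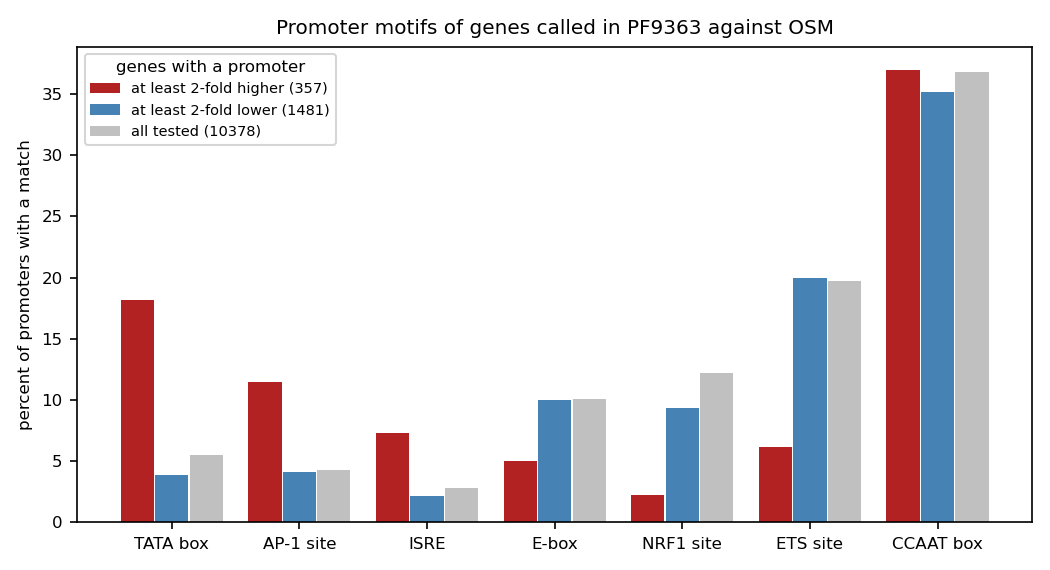
Percent of promoter windows (vertical axis, from 0) that hold each of 7 motifs, for genes called at least 2-fold higher (357, red), at least 2-fold lower (1481, blue) and all tested (10378, grey). The TATA box, AP-1 site and ISRE are most frequent in the genes that rose, and the E-box, NRF1 and ETS sites least frequent there.

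Neighbouring genes sometimes moved together. Among protein-coding genes in genome order, 15 runs of at least 4 adjacent tested genes were called at least 2-fold in the same direction, 2 of them higher and 13 lower. Of the 11917 tested protein-coding genes, 462 were at least 2-fold higher and 1688 at least 2-fold lower. How many runs such numbers would give without regard to position was not tested. The higher runs were the IFIT genes and KRT14, KRT17, EIF1 and HAP1 on chromosome 17 (41582279 to 41734644). KRT14 and KRT17 passed the limit only through the PF9363 libraries and so had to be higher there. Among the lower ones were HOXD10, HOXD9, HOXD8, HOXD3 and HOXD4 on chromosome 2 (176108790 to 176173102), ZNF736, ZNF680, ZNF107 and ZNF138 on chromosome 7 (64307459 to 64833681) and the SCAN-domain genes ZSCAN16, ZKSCAN8, ZSCAN9 and ZKSCAN4 on chromosome 6 (28124560 to 28252224). HOXD10 passed the limit only through the OSM libraries and so had to be lower in PF9363. With median-of-ratios scaling there were 6 runs, 5 higher and 1 lower, among them the IFIT genes and KRT7, KRT6A, KRT8 and KRT18 on chromosome 12 (52232520 to 52952901), and no run of HOX genes.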

How the data were processed

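Messenger RNA of 12 HMEC-1 libraries (4 groups of 3) was measured by stranded poly(A) sequencing, per the labels' protocols. The authors deposited 1 table of TPM values per gene and library. The tools RSEM 1.3.3, Trimmomatic 0.40 and Bowtie2 and the build GRCh38 are named, per the submitters' processing notes, with annotation and gene lengths not given in the sources used here. The PF9363 columns sum to 178 to 430 TPM less than 1e6 and were not rescaled. Whole reads could be recovered for 99.97% of tested genes (tolerance 0.001) and give the depths. Positions, gene types and GC content are from GENCODE 29.

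Genes past the limit of 1 TPM in 3 of the 6 PF9363 and OSM libraries were fitted as log2(TPM + 1) with limma 3.58.1 (R 4.3.3), with 1 mean per group over all 12 libraries and variances moderated along a trend, and p-values were Benjamini-Hochberg adjusted over all tested genes. The steps were tested on simulated data. Sums, counts and plots were made with Python 3.11.15, pandas 2.3.3, numpy 2.4.6 and matplotlib 3.10.9. Alternatives were pseudocounts of 0.1 and 5 TPM, other filters, scaling by median-of-ratios or by quantiles, a table without mitochondrial genes, correction for a GC and length trend, robust moderation, the compared groups alone, the replicate block, omission of each library and, chosen after seeing the data, voom on recovered reads.

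The comparison and gene lists were chosen with earlier results of these data known. Named genes are the 14 highest and 14 lowest changes that were called, reached a mean of 5 TPM and did not overlap, the 6 largest TPM rises and falls, the KAT6 list, up to 4 called members per list and direction, and 6 genes per direction changed oppositely with CBP300. Members of families and runs, genes named as not called, and H2BC5, H2BC21, IFI6, ISG15, PSMB9 and SERPING1 were added after their values were seen. Replicate numbers were examined for pairing. Some genes that the rule names are not reported here. HLA, histone, globin and metallothionein genes share sequence with close copies, so their values are uncertain.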

Additional observations from a re-analysis of the deposited data

How the results depend on the processing

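The balance of genes higher and lower with PF9363 depended on scaling. Against OSM, 3646 genes were higher and 3714 lower with median-of-ratios scaling, 3528 and 3940 with quantile scaling, and 4570 and 4088 with the GC and length trend removed, beside 1883 and 5822 by TPM. At least 2-fold higher and lower were 1101 and 1131, 1149 and 1049, and 1111 and 987 genes under those settings, 251 and 749 with a pseudocount of 5 TPM, and 348 and 1575 with a filter at 5 TPM. Against CBP300, 4304 were higher and 4529 lower, 4167 and 4790, and 4613 and 4462 under the scalings in the same order. The cause was not tested. Leaving out each library in turn gave 1561 to 2303 genes higher and 4779 to 7072 lower than in OSM. The count of genes lower was 7072 without CT replicate 1, a group outside the comparison that shares its estimate of spread, and 5108 without PF9363 replicate 3.

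Whether replicate numbers pair the libraries was not settled. Same-numbered PF9363 and OSM libraries correlated in their deviations by 0.312, -0.043 and 0.18, and libraries of unlike number were not correlated for comparison. With the replicate number as a block 1750 genes were higher and 5418 lower.

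Of the 164 genes whose values are printed, 126 kept their call, and their direction where called, under each of the 25 alternatives that could be run for them. These include voom on recovered reads, which was chosen after seeing the data. Directions of genes called neither by TPM nor under an alternative were not compared. The filter at 5 TPM removed 13 of the 164. BRPF1 turned higher with median-of-ratios scaling (0.31), quantile scaling (0.27) and the GC and length trend removed (0.33), KAT7 likewise (0.34, 0.38 and 0.54), ING5 with quantile scaling (0.04) and the trend removed (0.03), and HOXB7 with the trend removed (0.21). With 3 libraries a group and the depths given, small changes of genes near 1 TPM are poorly resolved.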

Other observations

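Peroxisome and SCAN-domain genes, chosen after their values were seen, were mostly lower too. Of 16 tested PEX genes, whose products build the peroxisome, 12 were lower and 0 higher than in OSM (10 and 1 with median-of-ratios scaling). PEX11A was the 1 that passed the limit only through the OSM libraries and so had to be lower in PF9363. PEX11A, which divides peroxisomes, had 0.453, 0.901 and 0.479 TPM in the PF9363 libraries, against 9.66, 10.2 and 8.59 TPM in the OSM libraries (log2 change -2.71, SE 0.15, adjusted p = 3.81e-07). PEX3 averaged 5.73 ± 1.13 TPM in PF9363 and 15.2 ± 1.14 TPM in OSM. Of 14 ZSCAN genes, 9 were lower and 0 higher under both scalings, with ZSCAN16 at 1.91 ± 0.41 TPM in PF9363 and 16.5 ± 1.15 TPM in OSM. The MARCHF genes were not lower as a family. Of 9 tested, 1 was higher and 4 lower, with a median of -0.28, near the shares (12.1% and 37.4%) and median (-0.32) of all genes. Single members fell further, and 1 of the 9 passed the limit only through the OSM libraries. MARCHF9, a membrane-bound ubiquitin ligase, averaged 0.915 ± 0.417 TPM in PF9363 and 13.1 ± 1.58 TPM in OSM. MARCHF8, a ligase that removes immune receptors from the cell surface, averaged 4.48 ± 1.34 TPM in PF9363 and 24.99 ± 2.11 TPM in OSM.

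Globin values were erratic. HBA2 had 44.9, 36.996 and 50.3 TPM in the PF9363 libraries, against 1.43, 0 and 14.9 TPM in the OSM libraries. HBB was listed at 0 in all 3 PF9363 libraries, against 48.8, 1.72 and 132 TPM in the OSM libraries. Since HBB passed the limit only through the OSM libraries, it had to be lower in PF9363. The near-identical alpha globin genes can share reads.

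Of the 8 tested genes reported as dependent on KAT6A in other cells, 0 were higher and 3 lower, near the 37.4% of all genes that were lower (3 and 2 with median-of-ratios scaling), with E2F2 at 16.2 ± 1.38 TPM in PF9363 and 22.8 ± 1.15 TPM in OSM and called lower by TPM but not with median-of-ratios scaling.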
